A study of Vitis vinifera with 16 samples.

Results

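A set of 57 of the 30661 genes in the expression table was higher in grapevine leaves sprayed with the botanical extract Akivi than in leaves sprayed with Bacillus or, as controls, with water, while the Bacillus leaves stayed near the controls. The set held a receptor protein kinase (RK20-1), a phytosulfokine precursor gene, a C2H2 zinc finger gene, a pathogenesis-related protein 1 (PR-1) precursor, an NSL1 gene and a gene for a plastocyanin domain-containing protein. The other 51 members carry no name in the sources used here. Members were chosen on the group means of log2(FPKM + 0.1), where FPKM is the number of fragments of a gene scaled to its length and to the depth of the library. The Akivi mean had to be at least 1 above the means of the controls and of both Bacillus groups. Each Bacillus mean had to be more than -0.5 and less than 1 from the control mean, and the mean FPKM under Akivi had to be at least 1. The differences between these groups are therefore given as descriptions, and no support is drawn from them.

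RNA-seq was done on leaves of cv. Garnacha Blanca (Vitis vinifera), grafted on 1 rootstock and grown in pots in a greenhouse. Leaves were harvested 24 h after spraying. Aki plants received Akivi, an extract of Dittrichia viscosa, at 0.521 g/L. BL and BF plants received Bacillus velezensis UdG at 1e+08 CFU/mL, lyophilized with skimmed milk in BL and fresh in BF. The 2 products also differed in growth medium and culture vessel, and the fresh cells were concentrated in culture supernatant. NTC plants, the non-treated control, received water. Each of the 4 groups had 4 biological replicates, and each replicate pooled 2 leaves from each of 5 plants. As the design was described, each block of plants held 1 treatment, so block and treatment cannot be told apart. In whole leaves, a change in the share of a cell type and a change in the RNA each cell holds cannot be told apart either. The libraries held 11078475 to 16991911 fragments assigned to genes. The study set aside 1 library per group whose place in a principal component analysis did not match the design (Aki_R1, BL_R1, BF_R1 and NTC_R3). Its reason was that spread between replicates might mask part of what a treatment does. The choice was thus made on these same data, and adjusted p values over the 12 retained libraries take no account of it. The members were chosen on all 16 libraries, while counts of calls rest on the 12 retained libraries unless stated.

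Plants sense attack through receptor kinases at the cell surface and through secreted peptides, and they answer with transcription factors, with secreted antimicrobial and pathogenesis-related proteins and with control of cell death. Salicylic acid is the hormone most closely tied to PR-1, which is widely used as a marker of that pathway. Phytosulfokine is a small sulfated peptide that is cut from a precursor protein and perceived by a receptor kinase, and in Arabidopsis it affects both growth and immunity.

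For 3 of the members the study designed primers for quantitative PCR. They are shown because they fix which stretch of each gene was meant, and they are written 5′ to 3′ in lower case. The gene IDs place RK20-1 and the plastocyanin domain gene on chromosome 12 and the PR-1 precursor on chromosome 3 of the PN40024 genome, the reference used for mapping.
RK20-1 forward: tgtgtcactgaggcaaccaa
RK20-1 reverse: tcgtaccaaatgatcgctcc
Plastocyanin domain forward: tagcccttcggctcacaatg
Plastocyanin domain reverse: aatagttggcccccttcacc
PR-1 forward: caatggagggtggttcgtca
PR-1 reverse: caccatgctctaacagtaccca
The primers were 20 to 22 bases long, with 10 or 11 of their bases G or C. The study used them in this cultivar and also in cvs. Garnacha Tinta and Macabeo. In this cultivar it reported the receptor kinase, the plastocyanin domain gene and the PR-1 precursor as all raised by Akivi. Each differed significantly from the control there, and the genes had been chosen on the RNA-seq of this same cultivar. In the other cultivars it reported RK20-1 as raised by Akivi in both, with a significant difference only in Macabeo. The plastocyanin domain gene was reported as raised in Garnacha Tinta and lowered in Macabeo, and the PR-1 precursor as not affected in either.

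Of all genes, 478 had an Aki mean at least 1 above the NTC mean on the log2(FPKM + 0.1) scale. A mean of at least 1 FPKM in Aki leaves was reached by 273 of them, and 156 of these were also at least 1 above both BL and BF. The limits on the Bacillus groups then removed 99 genes, all because BL or BF lay 0.5 or more below NTC, and none because BL or BF lay above. The same rule turned round found 15 genes lower in Aki only. With BL in the place of Aki it found 33 higher and 11 lower genes, and with BF 12 higher and 50 lower. Just inside the threshold on Aki minus NTC lay members at 1.01, 1.03 and 1.03, and just outside it lay genes at 0.97, 0.97 and 0.94.

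Over the 57 members the Aki minus NTC difference had a median of 1.43 and ran between 1.01 and 3.61. It was 2 or more in 8 members, 1.5 to 2 in 18 and under 1.5 in 31. Aki minus BL had a median of 1.52 (1.03 to 3.76) and Aki minus BF a median of 1.52 (1.00 to 3.54). BL minus NTC had a median of -0.09 (-0.49 to 0.60) and BF minus NTC a median of -0.07 (-0.48 to 0.48). Most members were of low or middle abundance in Aki leaves, with a mean under 5 FPKM in 22, 5 to 50 FPKM in 27 and 50 FPKM or more in 8. FPKM is scaled to length, so levels of different genes can be set side by side roughly. This holds least for the 3 members shorter than 200 bases and for genes with near-identical copies.

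**Figure D1:**
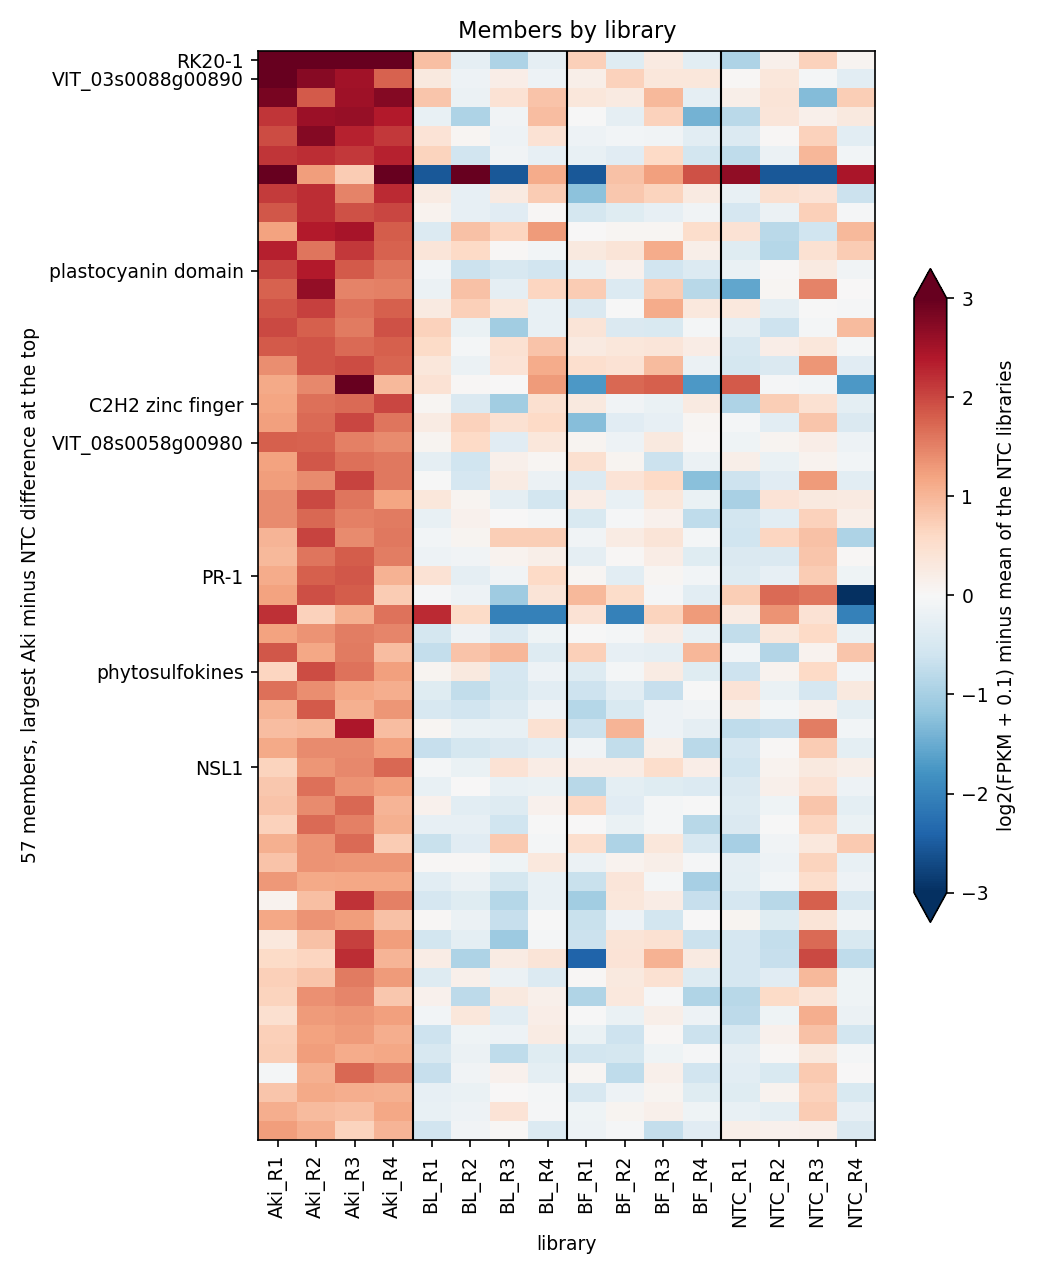
Heat map of the 57 members (rows, largest Aki minus NTC difference at the top) in the 16 libraries (columns, by group), with log2(FPKM + 0.1) relative to the mean of the NTC libraries as colour. Aki columns are red for nearly all members, the NTC_R3 column is redder than the other NTC columns, and the 4 rows that switch between red and blue within groups are short genes of 69 to 341 bases.

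RK20-1 (VIT_12s0059g02600), a receptor-like kinase of the kind that carries signals across the plasma membrane, had the largest difference of the members. It was measured at 2.40, 2.03, 3.20 and 1.6 FPKM in the Aki libraries R1 to R4, against 0.257, 0.0592, 0 and 0.0583 FPKM in BL, 0.213, 0.0493, 0.129 and 0.0526 FPKM in BF and 0, 0.111, 0.211 and 0.104 FPKM in NTC. The gene was near 0 in all 12 libraries without Akivi and above 1 FPKM in all 4 with it, so the groups did not overlap. The Aki minus NTC difference was 3.61 on the log2(FPKM + 0.1) scale, which understates the change of genes this low. In fragments, the Aki libraries held 46, 31, 72 and 35, against 0, 2, 4 and 2 in the NTC libraries. The ratio of the summed and depth-scaled fragments was 22.9 for Aki over NTC, with an exact 95% interval of 11.4 to 53.8 that covers counting error only. The same ratio was 21.8 over BL (10.8 to 51.2) and 21.5 over BF (10.7 to 50.5). With so few fragments the log2 difference depends on the pseudocount, at 4.92 with 0.01 FPKM and 1.56 with 1 FPKM.

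The phytosulfokine precursor gene (VIT_18s0001g08760, chromosome 18) encodes the peptide ligand class described above. Its levels were 57.3, 141, 112 and 85.5 FPKM in Aki, against 38.6, 44.3, 25.5 and 33 FPKM in BL, 27.6, 34.7, 42.9 and 28.3 FPKM in BF and 23.7, 39.0, 55.1 and 34.5 FPKM in NTC. The lowest Aki library (R1) lay just above the highest NTC library (R3), and no library of another group reached the Aki values. The Aki minus NTC difference was 1.36 over 16 libraries and 1.80 over the 12 retained, which leave out both of those libraries. A second phytosulfokine gene, PSK1 (VIT_08s0007g03870), was not a member. It averaged 5.70 ± 2.41 FPKM in Aki, 3.58 ± 0.445 in BL, 4.2 ± 0.833 in BF and 3.60 ± 2.25 in NTC (SD, n = 4 each), a log2 difference between Aki and NTC of 0.75.

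The C2H2 zinc finger gene (VIT_13s0019g00480, chromosome 13) belongs to a large family of DNA-binding transcription factors, several of which act in stress responses in Arabidopsis. FPKM values of this gene were 3.8, 5.24, 5.45 and 6.73 in Aki, against 1.67, 1.16, 0.721 and 2.28 in BL, 1.98, 1.49, 1.38 and 1.96 in BF and 0.800, 2.76, 2.25 and 1.29 in NTC. All Aki libraries lay above all others, although the NTC libraries differed widely among themselves. The Aki minus NTC difference was 1.64.

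The PR-1 precursor (VIT_03s0088g00810), a small secreted protein with activity against oomycetes in other plants, was the most abundant member. It was measured at 394, 629, 668 and 378 FPKM in Aki, against 245, 151, 169 and 276 FPKM in BL, 189, 146, 188 and 173 FPKM in BF and 139, 153, 310 and 167 FPKM in NTC. Its means were 517 ± 153, 211 ± 60.1, 174 ± 20.4 and 192 ± 79.6 FPKM in that order (SD, n = 4 each). Library NTC_R3 stood well above the other NTC libraries and still below every Aki library. The Aki minus NTC difference was 1.46 over 16 libraries and 1.71 without NTC_R3. PR-1 genes form a family, and only uniquely mapping fragments were counted, so the split between near-identical copies is uncertain.

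NSL1 (VIT_01s0011g05950, chromosome 1) is named after necrotic spotted lesions, and in Arabidopsis loss of its namesake leads to spots of cell death and raised salicylic acid responses. Its levels were 1.39, 2.26, 2.46 and 3.02 FPKM in Aki, against 0.799, 0.723, 1.17 and 1.00 FPKM in BL, 0.994, 0.991, 1.25 and 0.982 FPKM in BF and 0.518, 0.918, 1.06 and 0.969 FPKM in NTC. Aki_R1 was only just above the highest Bacillus library, and the groups did not overlap. The Aki minus NTC difference was 1.29, and Aki minus BF, at 1.00, only just met the threshold.

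The plastocyanin domain gene (VIT_12s0034g01140) encodes a protein with the fold of small blue copper proteins, a group that in plants includes many secreted or membrane-anchored proteins outside photosynthesis. It was measured at 113, 145, 100 and 84.8 FPKM in Aki, against 26.4, 17.8, 20.1 and 18.9 FPKM in BL, 24.1, 30.6, 18.9 and 20.9 FPKM in BF and 24.4, 28.6, 33.6 and 26.0 FPKM in NTC. The lowest Aki library was above all the others by a wide margin. The means were 111 ± 25.6 FPKM in Aki, 20.8 ± 3.87 in BL, 23.6 ± 5.11 in BF and 28.2 ± 4.01 in NTC (SD, n = 4 each), and the Aki minus NTC difference was 1.95.

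Among the unnamed members, a pair is given because of its place in the genome and was chosen after its values were seen. VIT_03s0088g00890 lies on chromosome 3 in the same stretch of IDs as the PR-1 precursor, with 4 listed genes between them. It was measured at 26.7, 12.7, 11 and 6.55 FPKM in Aki, against 2.29, 1.66, 2.12 and 1.64 FPKM in BL, 2.10, 3.05, 2.36 and 2.37 FPKM in BF and 1.90, 2.35, 1.78 and 1.46 FPKM in NTC. Here Aki_R1 was the highest Aki library, unlike in the phytosulfokine and NSL1 genes, where it was the lowest. The Aki minus NTC difference was 2.70 over 16 libraries and 2.32 over the 12 retained. VIT_08s0058g00980, on chromosome 8, directly follows in ID order a cationic peroxidase gene that the study used as an Akivi marker. Its levels were 31.2, 30.9, 25.8 and 24.2 FPKM in Aki, against 9.46, 13.6, 7.03 and 11.4 FPKM in BL, 9.45, 8.11, 11 and 9.20 FPKM in BF and 8.19, 9.51, 10.2 and 8.06 FPKM in NTC. The Aki libraries lay close together and far above the rest, with an Aki minus NTC difference of 1.63.

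**Figure D2:**
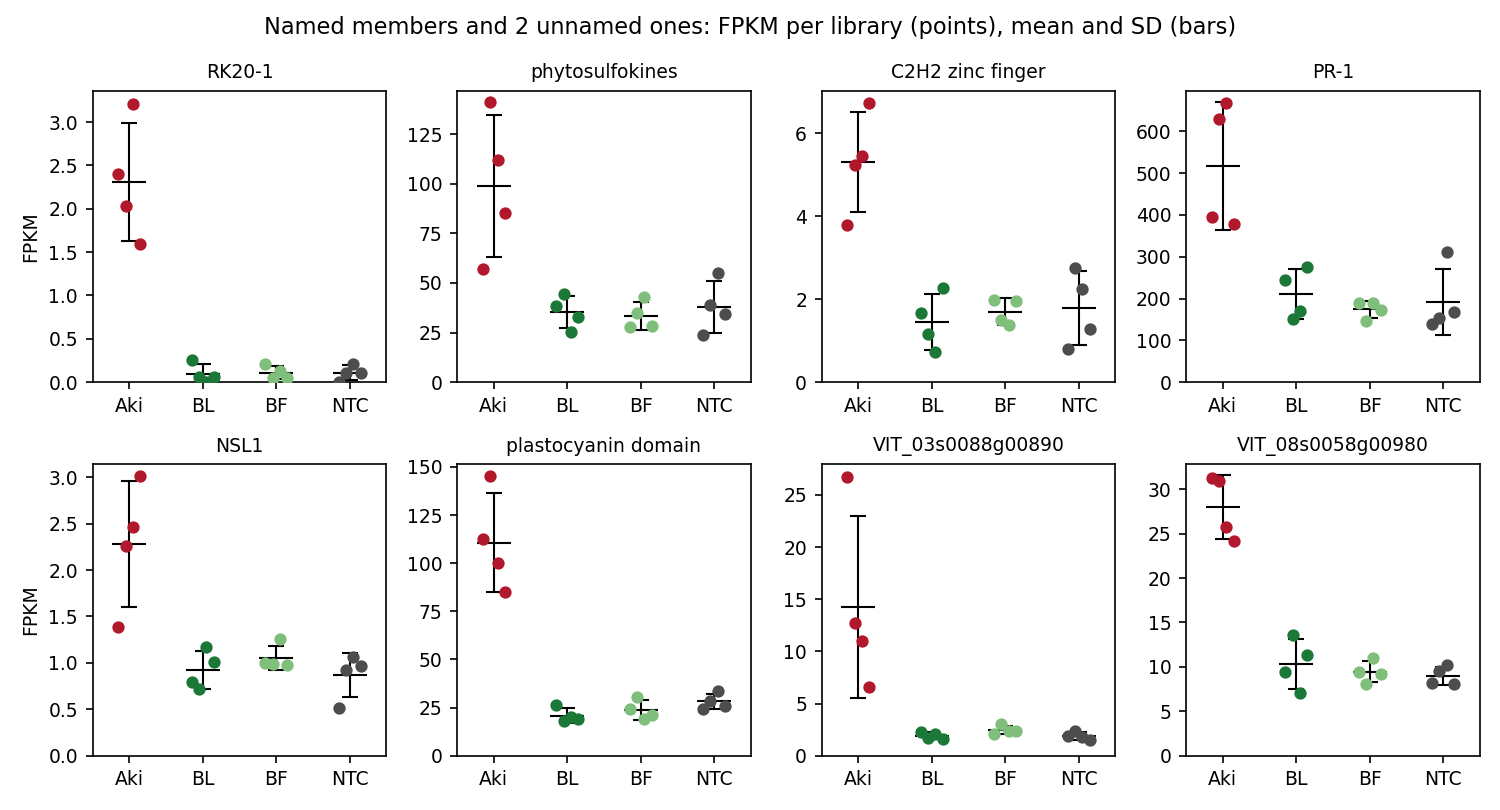
FPKM in each library (points) for the 6 named and 2 unnamed members described, with the mean and SD of each group of 4 libraries as bars and each vertical axis starting at 0. All 4 Aki points lie above all 12 others in each panel, and the NTC point farthest from its group is the 310 FPKM of PR-1.

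All 57 members passed the filter on low values of the fit across genes (20078 genes tested over 12 libraries). Because the rule used these contrasts, the calls are given beside the background and nothing is read from them. A gene was called when its limma adjusted p was at most 0.05 and its log2 difference at least 1.4 in size. Between Aki and NTC, 43 members were called higher, against 0.956% of all genes (192 of 20078). Over 16 libraries, 23 members were called, against 0.375% of all genes (76 of 20246). Between Aki and BL, 35 members were called higher (background 1.36%), and between Aki and BF 36 members (background 1.28%). Over 16 libraries these were 30 (background 1.45%) and 34 (background 1.42%). The calls in all 3 contrasts covered 27 members, of 100 genes in all, or 18 of 69 over 16 libraries, and 10 members were called in none of them over the retained libraries. The 8 members described above were all called between Aki and NTC over 12 libraries, while over 16 libraries the phytosulfokine gene and NSL1, at 1.36 and 1.29, were under the fold threshold. Not all of the 8 were called against Bacillus. NSL1 was called against neither BL nor BF over 12 or 16 libraries (1.35 and 1.19 over 12). VIT_08s0058g00980 was not called against BL over 12 libraries (1.37), nor the PR-1 precursor against BL over 16 (1.29). Neither BL nor BF gave a call against NTC for any member over 12 or 16 libraries, as the limits of the rule nearly fix. The background over 12 libraries was 3.83% for BL and 2.73% for BF in either direction.

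Looked at library by library, 42 of the 57 members had every Aki library above every NTC library, against 3.43% of the genes tested over 16 libraries. All 4 Aki libraries lay above all 12 others in 40 members (background 1.1%). Over the retained libraries these counts were 52 (background 13.3%) and 49 (background 3.68%). Of the 192 genes called higher in Aki than in NTC, 22.4% were members, 44 were also called higher in BL or BF and 12 were called lower in BL or BF. Of the 76 called over 16 libraries, 23 were members, 1 was also called higher in BL or BF and 21 were called lower.

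The lyophilized and the fresh Bacillus were the only pair of groups that the rule did not contrast, although its limits against NTC narrow the range their difference can take. No member was called between BL and BF, nor was any other gene (limma, 0 of 20078, background 0.0%). An unadjusted p under 0.05 was found for 1 member, or 1.75%, against 1625 genes, or 8.09%, and the smallest adjusted p of a member was 0.368. A second test, limma-voom on rebuilt fragments, called 0 members. BL minus BF had a median of -0.05 over the members and -0.01 over all genes, ran between -1.14 and 0.76, and was positive in 28 members. The median standard error of 0.26 sets what 3 libraries a group can show. For RK20-1, BL minus BF was -0.35 ± 0.54 (SE, limma adjusted p = 0.866). For the PR-1 precursor it was 0.19 ± 0.24 (limma adjusted p = 0.826), for the plastocyanin domain gene -0.28 ± 0.20 (limma adjusted p = 0.704) and for VIT_03s0088g00890 -0.50 ± 0.26 (limma adjusted p = 0.643).

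The members did not move evenly across libraries. Relative to the NTC mean, their median was 1.21, 1.62, 1.62 and 1.47 in the Aki libraries R1 to R4, -0.06, -0.17, -0.16 and -0.01 in BL, -0.12, -0.07, 0.19 and -0.19 in BF and -0.40, -0.08, 0.59 and -0.13 in NTC. NTC_R3 was thus the control library closest to Aki, and Aki_R1 the Aki library closest to the controls, and both were among the libraries the study set aside. The median over all genes with a mean of 1 FPKM in Aki stayed between -0.20 and 0.09 in all libraries. NTC_R3 was the highest NTC library in 36 members (63.2%, against 30.5% of 17737 genes), and Aki_R1 the lowest Aki library in 31 (54.4%, against 22.8%). NTC_R3 reached the lowest Aki library in 11 members, and each of the other 11 libraries without Akivi did so in 1 to 6. Without NTC_R3 the median Aki minus NTC difference was 1.69, and over the 12 retained libraries it was 1.80. What set these libraries apart was not tested.

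The spread within groups was also wider in members than in other genes of at least 1 FPKM in Aki. The median coefficient of variation over members was 24.3% in Aki, 24.0% in BL, 28.1% in BF and 43.1% in NTC, against 12.7%, 12.4%, 18.7% and 14.7% over all such genes. The NTC value was the highest of the members' 4 values, and the NTC group includes NTC_R3. Counting error is part of the spread in low members, since 6 members had under 10 fragments in some Aki library and 8 had 0 in some library. The 3 members shorter than 200 bases held at most 11 fragments in any Aki library. In 2 members no NTC library held more than 3 fragments. One of them was at least 4.34-fold higher in Aki, taking 3 fragments per library as the floor, and for the other, a non-coding RNA, the Aki mean of 1.07 FPKM was itself under the floor of 1.32 FPKM, so no fold is given.

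**Figure D3:**
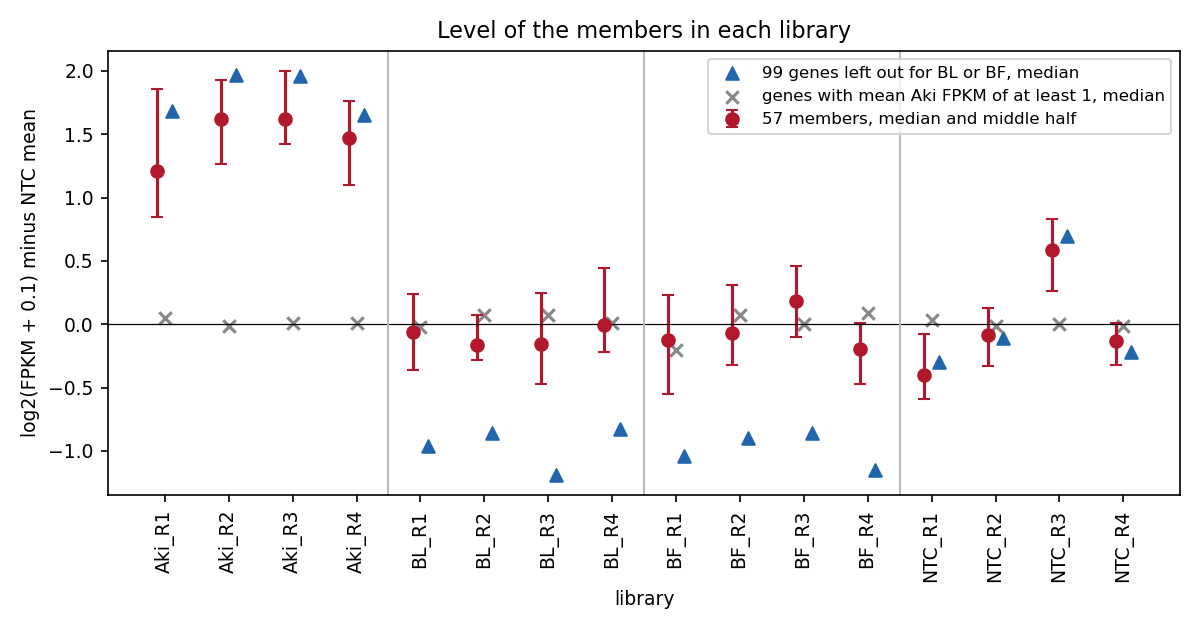
Median log2(FPKM + 0.1) relative to the NTC mean in each of the 16 libraries for the 57 members (circles, bars to the lower and upper quartile), the 99 genes left out because BL or BF lay below NTC (triangles) and all genes with a mean of at least 1 FPKM in Aki (crosses). The members stand at 1.21 to 1.62 in Aki and near 0 in BL and BF, where the 99 genes stand at -1.19 to -0.83, and NTC_R3 is the highest NTC library for both sets.

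The 12 genes that the study used as markers of the Akivi response were all called higher in Aki than in NTC, BL and BF in the retained libraries. Over 16 libraries 11 were called against NTC, 11 against BL and 12 against BF, with the gene for a pore-forming toxin-like protein Hfr-2 (VIT_07s0005g06090) against NTC (1.38) and the PR-1 precursor against BL (1.29) under the fold threshold. The markers were picked by the study on these libraries and are no independent evidence. RK20-1, the plastocyanin domain gene and the PR-1 precursor were members. The other 9 missed the rule because BL, BF or both lay more than 0.5 below NTC, and for gibberellin 2-oxidase, which inactivates gibberellins, only BF did. The salicylic acid carboxyl methyltransferase gene (VIT_04s0023g02240), whose product makes methyl salicylate, averaged 92.6 ± 26.0 FPKM in Aki, 6.28 ± 1.77 in BL, 6.41 ± 2.6 in BF and 18.6 ± 8.05 in NTC (SD, n = 4 each). Lateral organ boundaries protein 1 (VIT_06s0004g03350), a transcription factor, averaged 12.3 ± 1.67 FPKM in Aki, 0.633 ± 0.283 in BL, 0.434 ± 0.329 in BF and 1.45 ± 0.731 in NTC. Over the retained libraries none of these 9 genes was called lower in BL or BF than in NTC. Over 16 libraries 2 were called lower in BL and 4 in BF, for which no background is given here. For the methyltransferase the 16-library difference to NTC was -1.50 in BL (limma adjusted p = 0.00477) and -1.53 in BF (limma adjusted p = 0.00407). NTC_R3 was the highest NTC library in 12 of the 12 markers.

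The 99 genes left out differ from the members by construction, in that BL or BF lay below NTC. Their median was -0.89 for BL minus NTC and -0.89 for BF minus NTC, and both groups were 0.5 or more below NTC in 63 of them. Of the 99, 11 were called lower in BL than in NTC (background 1.85%) and 15 in BF (background 1.14%). Over 16 libraries these were 16 and 23, for which no background is given here, so the rise is not read. Their library medians relative to the NTC mean were 1.68, 1.97, 1.96 and 1.65 in Aki, -0.96, -0.86, -1.19 and -0.83 in BL, -1.04, -0.89, -0.86 and -1.15 in BF and -0.29, -0.11, 0.70 and -0.22 in NTC. NTC_R3 was the highest NTC library in 70 of the 99, so the NTC mean that divides members from these genes itself rests in part on that library. When NTC_R3 was left out, 79 genes met the rule, 55 of the 57 members among them.

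**Figure D4:**
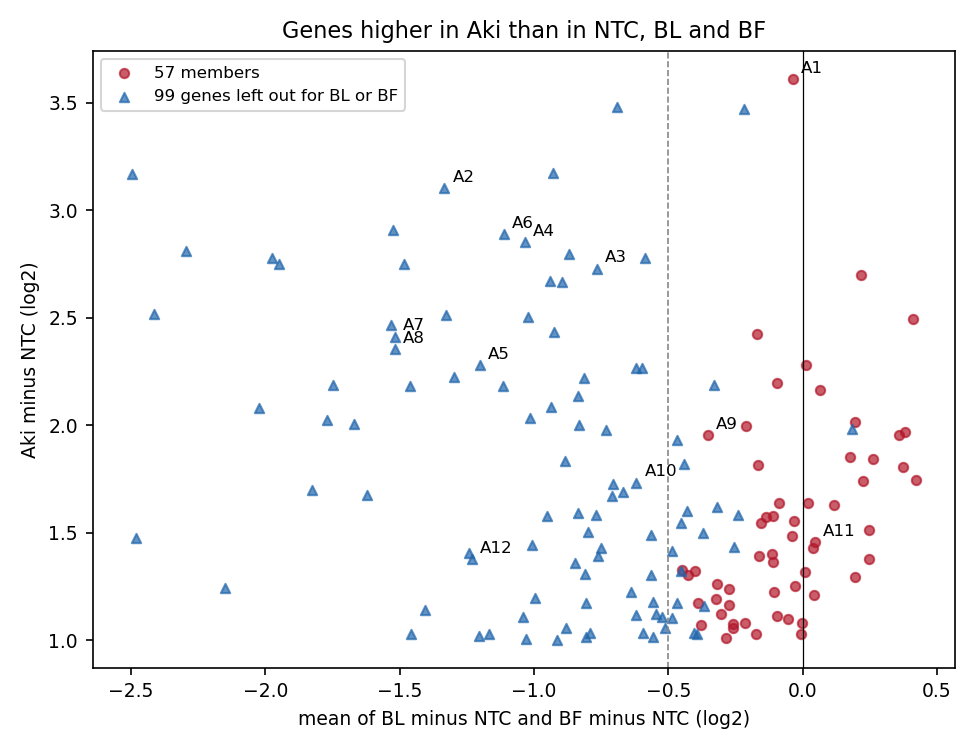
Aki minus NTC (vertical axis, log2) against the mean of BL minus NTC and BF minus NTC (horizontal axis, log2) for the 57 members (circles) and the 99 genes left out for BL or BF (triangles), with the study's 12 Akivi markers labelled A1 to A12. The dashed line at -0.5 applies to each Bacillus group alone, so triangles to its right have 1 group below it, and of the markers RK20-1 (A1), the plastocyanin domain gene (A9) and the PR-1 precursor (A11) are circles.

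Genes were also counted on lists of defence, hormone, stress and cell division roles. Only IDs named by the study could be counted, and it named genes chosen on these libraries, so these counts are not independent evidence. The lists of pathogenesis-related proteins and of receptor-like kinases held 1 member each, and the others held none. The lists were matched by words in gene descriptions and missed some genes that the study names. Among those missed were an AP2/ERF domain gene, a small heat shock gene and several cyclin genes. The background for single contrasts against NTC over the retained libraries was 0.956% higher and 0.722% lower in Aki, 1.98% and 1.85% in BL and 1.59% and 1.14% in BF. Over 16 libraries only the share higher in Aki is given here (0.375%), so the other counts over 16 libraries are not read against all genes. Of 3 genes of salicylate signalling, 3 rose in Aki over the retained libraries and none was called in BL or BF. Over 16 libraries 2 of the 3 were called in Aki, and the methyltransferase was called lower in BL and BF. They were the methyltransferase above and 2 genes for NIMIN-type proteins, which in Arabidopsis bind the regulator NPR1. The log2 difference to NTC of the NIMIN-1 orthologue (VIT_07s0005g02070) was 1.84 ± 0.27 in Aki (SE, limma adjusted p = 0.00305) and -0.89 ± 0.27 in BL, which did not pass the fold threshold. None of the 3 was a member, because BL and BF lay below NTC in each.

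Of 3 pathogenesis-related genes, the PR-1 precursor was the only one called in Aki, over 12 and over 16 libraries. The PR-10 gene VIT_05s0077g01570 rose in BL, by 1.72 ± 0.39 (SE, limma adjusted p = 0.00905), and the PR-10 gene VIT_05s0077g01600 fell by 1.51 in BF (SE 0.45, limma adjusted p = 0.0375). Over 16 libraries the BL value was 1.32, under the fold threshold, and the fall in BF was kept. PR-10 genes lie side by side in the genome and are alike in sequence, so their split is uncertain. Both of the 2 listed peroxidase genes, which act on cell walls and hydrogen peroxide, rose in Aki, also over 16 libraries. So did the only listed gene each for a terpene synthase, an ERF, a LOB protein and a gibberellin oxidase. None of these genes was called in BL or BF over the retained libraries, while over 16 libraries the terpene synthase was called lower in BL and BF, and the LOB gene and 1 peroxidase gene in BF. Of 3 receptor-like kinases, RK20-1 was called higher in Aki, VIT_05s0020g01690 fell by 1.57 in Aki (SE 0.31, limma adjusted p = 0.0114), a call lost over 16 libraries at -0.93, and PERK1 was called lower in BL and BF. The differences of PERK1 to NTC were -1.87 in Aki (limma adjusted p = 0.0753, no call), -1.91 in BL and -1.99 in BF. The WRKY33 gene (VIT_08s0058g00690), a regulator of defence against fungi in Arabidopsis, gave 0.89 ± 0.36 for Aki with no call (SE, limma adjusted p = 0.171), and rose by 2.03 ± 0.36 in BL (limma adjusted p = 0.00230) and 1.68 ± 0.36 in BF (limma adjusted p = 0.00806). Over 16 libraries it was called in BL at 1.65 and was under the fold threshold in BF at 1.32. The JAZ8 gene gave no call, at 0.63 in Aki, 0.01 in BL and 1.69 ± 0.73 in BF (SE, limma adjusted p = 0.147). Its BF value was past the fold threshold, and the study reported the gene as upregulated in BF. Of the 2 listed small heat shock genes 1 was called higher in BF. That gene, VIT_13s0019g03160, gave 1.06 for Aki, 1.28 for BL and 1.66 for BF (limma adjusted p = 0.0421, 0.00851 and 0.00216), with Aki and BL under the fold threshold. Over 16 libraries both listed heat shock genes were called higher in BF and 1 in BL.

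Of the 12 listed and tested markers of dividing cells (cyclins and histones), 0 rose over the retained libraries, while Aki had 3 that fell, BL 9 and BF 4. Over 16 libraries 0 were called in Aki, 5 were called lower in BL and 2 in BF. The list had a median log2 difference to NTC of -0.60 for Aki, -1.60 for BL and -1.18 for BF, beside medians of all genes between -0.01 and 0.05. NTC_R3 was the lowest NTC library for 12 of the 12, with a median of -0.99 relative to the NTC mean, against 0.51, -0.01 and 0.57 in NTC R1, R2 and R4. No member was on that list, and its part in the members' values was not tested. The leaf label could not be checked against photosynthesis markers, since no ID on that list is paired with a name in the sources used here.

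The members were spread over the genome. Of the 55 with a chromosome or scaffold in their ID, 9 were on unplaced scaffolds (16.4%, against 6.88% of genes of at least 1 FPKM in Aki) and 6 on chromosome 13 (10.9%, against 5.47%). The only members that shared a stretch of IDs with few genes between them were the PR-1 precursor and VIT_03s0088g00890. Counting all 156 genes higher in Aki than in NTC, BL and BF, 8 of the 55 members (14.5%) had another of the 156 within 3 places in ID order, against 31 of 97 genes left out for BL or BF (32.0%) and 2.66% of genes of at least 1 FPKM in Aki. The gene listed just before RK20-1, VIT_12s0059g02590, was among the genes left out, at a mean of 1.29 FPKM in Aki, 0.0261 in BL, 0.0235 in BF and 0.136 in NTC. Neighbouring copies that share sequence may share or lose fragments under unique mapping, and this was not tested. The members' lengths ran between 69 and 4393 bases with a median of 1045.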

How the data were processed

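RNA-seq libraries of 16 leaf samples were made with a stranded mRNA kit. Per the methods and labels, reads were called with CASAVA 1.8.2, checked with FastQC 0.10.1, trimmed with BBDuk, mapped with STAR 2.6 to the PN40024 genome and counted with featureCounts 1.6.1 on uniquely mapping reads. Whether counting used strand was not given in the sources used here, so overlapping antisense genes are uncertain. The authors deposited FPKM values made with edgeR, with no further scaling between libraries. Whole fragments could be rebuilt from the steps of the FPKM values for 25310 of the 25310 genes above 0, and gave totals of 11078475 to 16991911 per library. Intervals and floors cover counting error only.

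Groups were taken from the labels. Values were analysed as log2(FPKM + 0.1) in limma 3.58.1 (R 4.3.3, trend and robust), with all 4 groups in 1 fit, the 12 libraries the study retained, genes of at least 0.5 FPKM in 3 libraries, and Benjamini-Hochberg adjustment over all genes. A gene was called at an adjusted p of at most 0.05 with a log2 difference of at least 1.4 in size. Alternatives were all 16 libraries, other pseudocounts and filters, rescaling, a replicate block, leaving out each library and, added after seeing the data, limma-voom on the rebuilt fragments. Replicates came from separate plants of 1 experiment. The fit was also run on simulated data with the same spread for all genes and no deviating library. That run therefore does not speak for the spread seen here.

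The members and the gene lists (18, of which 12 had an ID) were chosen with earlier results of these data known. The text names the members that the study names and a pair of unnamed ones. Names came from the study, since 0 IDs matched the RefSeq table given.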

Additional observations from a re-analysis of the deposited data

Results flagged for a closer look

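For the 8 members described and for the members' median level, the highest and the lowest library of each group of 4 were examined for a large gap to the rest of the group, 72 checks in all. By Dixon's ratio of gap to range at its 95% limit, which chance alone passes in about 1 in 20 groups, 2 libraries stood apart. Over the groups examined, about this many would pass by chance alone. For the PR-1 precursor (VIT_03s0088g00810) the NTC_R3 library, at 310 FPKM, stood above the other NTC libraries (139, 153 and 167 FPKM) with a ratio of 0.835. For NSL1 (VIT_01s0011g05950) the BF_R3 library, at 1.25 FPKM, stood above the other BF libraries (0.994, 0.991 and 0.982 FPKM) with a ratio of 0.957.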

How the results depend on the processing

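The number of genes that met the rule was 57, and 97 in the 12 retained libraries (49 of the 57 among them), 103 with no minimum on the Aki mean, 21 with differences of at least 1.4, and 45 (without NTC_R1, 37 of the 57) to 79 (without NTC_R3, 55 of the 57) when 1 library was left out. With a pseudocount of 1 FPKM, 32 of the 57 remained, 12 members were kept under all 23 alternatives, and NSL1 was kept under 14. Genes called higher in Aki than in NTC numbered 192, and 76 with all 16 libraries, 102 with a pseudocount of 1 FPKM, 861 with no fold threshold and 105 to 223 when 1 library was left out. Genes called lower numbered 145, and 1, 52, 728 and 48 to 199 under the same settings. Leaving out Aki_R3 gave 105 higher and 69 lower, NTC_R1 121 and 51, and NTC_R4 48 lower. Members called were 43, and 23 with all 16 libraries (all of them among the 43) and 30 to 43 when 1 library was left out. Calls on the gene lists were 35, and 23 (without NTC_R4) to 36. Limma-voom on rebuilt fragments gave 211 higher and 198 lower genes and 43 members. No member was called between BL and BF under any setting run. With a replicate block, 98 genes were called higher, 44 lower and 25 members (24 of the 43), and with a replicate block over all 16 libraries 75, 2 and 23. Same-numbered libraries correlated at -0.35 to 0.37 (mean 0.06), over 0.1 in 10 of 24 pairs. Libraries with different numbers correlated at -0.42 to 0.45 (mean -0.02). The main fit did not pair the samples, and whether the numbers pair them was not tested. As a hint from the data, 10 of 16 libraries correlated best with their own number, and every pair of replicate 3 was positive (0.10 to 0.37). The causes were not tested. The search of promoters for motifs was not run, since no sequence could be matched to these IDs. Depth limits RK20-1, whose NTC libraries held 0 to 4 fragments, and the short members.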
